A study of Mus musculus with 17 samples.

Results

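The Rab genes encode the largest family of Ras-like small GTPases, and the results below describe how their RNA and the histone mark at their promoters stood in the livers of mice fed a high-fat diet. Members were the genes named Rab with a number and at most 1 further letter (Rab7, Rab11a) in the deposited gene table or region table, so Rab-like genes, effectors and regulators were not counted as members. The rule found 55 genes. Of these, 45 were among the 12334 genes of the RNA table, 50 had at least 1 of 51 acetylated regions within 1000 bases of a transcription start site, and 41 had both. RefSeq lists 59 genes of this name form, and 4 of them (Rab25, Rab33a, Rab39b and Rab3c) were listed in neither table.

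Livers came from C57BL/6 mice, an inbred laboratory strain, kept for 10 weeks on a high-fat diet (HFD, fat supplying 60% of the calories) or on a control diet (CD, 18%). Polyadenylated RNA was sequenced from 4 HFD and 4 CD livers, and DNA bound to histone H3 acetylated at lysine 9 (H3K9ac), a mark of active promoters, from 3 HFD and 3 CD livers. Letters name the libraries: A to D in each diet for RNA, and for H3K9ac A, B and D under HFD and A, C and D under CD. The samples are whole liver, in which fewer cells of a type and less RNA per cell cannot be told apart, and no age, sex, hour of collection or feeding state is given in the labels used here.

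Rab proteins cycle between a GTP-bound form, which sits on a membrane and recruits effectors, and a GDP-bound form, which GDP dissociation inhibitor holds in the cytosol. Guanine nucleotide exchange factors switch them on, GTPase-activating proteins switch them off, and a lipid tail added by geranylgeranyl transferase anchors them. Each membrane compartment carries its own Rabs, and in hepatocytes they direct secretion of plasma proteins and lipoproteins, uptake and recycling of receptors, transport to the bile canaliculus, autophagy and lipid droplet traffic.

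The RNA of 3 of 45 Rab genes (6.67%) passed the test for a difference between the diets, against 7.27% of all genes. Rab34, known for roles in cilium formation and lysosome positioning, and Rab36, its close relative, fell in HFD livers, and Rab23, a negative regulator of Hedgehog signalling in the mouse, rose. H3K9ac fell at the promoter of Rab34 and in an intron of Rab36. The housekeeping Rabs of the secretory and endocytic routes, which made up most of the family's RNA, did not pass the test.

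The 250 bases before the first start site are shown for the pair of called genes that RefSeq's promoter table holds (build GRCm38.p6, 5′ to 3′), because the acetylated promoter regions of both begin inside these windows. The start sites used for the H3K9ac distances lie further downstream, at base 78188747 for Rab34 and 33720418 for Rab23. Capitals mark the matches to 7 motifs searched on both strands: the GC box GGGCGG, the box named CCAAT, the TATA box in the form TATAAA, the E-box CACGTG, the cyclic AMP element TGACGTCA, the D-box form TTATGNAA and the AP-1 type element TGANTCA.
Rab34 chr11:78188177-78188426 plus strand: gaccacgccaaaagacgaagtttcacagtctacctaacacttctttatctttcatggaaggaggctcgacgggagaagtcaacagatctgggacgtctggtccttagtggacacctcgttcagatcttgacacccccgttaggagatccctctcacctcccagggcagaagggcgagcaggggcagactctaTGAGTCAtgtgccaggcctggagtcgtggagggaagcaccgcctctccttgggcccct
Rab23 chr1:33719646-33719895 plus strand: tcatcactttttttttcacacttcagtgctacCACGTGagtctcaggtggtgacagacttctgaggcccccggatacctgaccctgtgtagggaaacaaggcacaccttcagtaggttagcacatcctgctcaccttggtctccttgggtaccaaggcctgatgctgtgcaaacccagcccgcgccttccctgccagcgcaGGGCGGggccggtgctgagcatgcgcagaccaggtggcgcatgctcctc
The Rab34 window held TGAGTCA, a match to TGANTCA, and no match to the other motifs. The Rab23 window held 1 CACGTG and 1 GGGCGG. Among all 32851 windows of this length, 6.75% held TGANTCA, 6.02% CACGTG and 32.7% GGGCGG. Of 60 windows of 44 Rab genes, 2 (3.33%), 5 (8.33%) and 40 (66.7%) held these motifs in the same order. TGANTCA was added to the search after the Rab34 sequence had been read, and a match is a run of letters, not a known site.

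Levels are compared between genes only per transcript length, as FPKM (fragments scaled to transcript length and library size), from the log2 FPKM values the authors deposited. The mean level of the Rab genes over the 8 livers ran from 0.18 to 76.6 FPKM with a median of 9.25 FPKM, against 5.34 FPKM over all listed genes. Of the 45, 28 lay above that all-gene median, 15 lay above 20 FPKM and 8 below 1 FPKM.

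**Figure D1:**
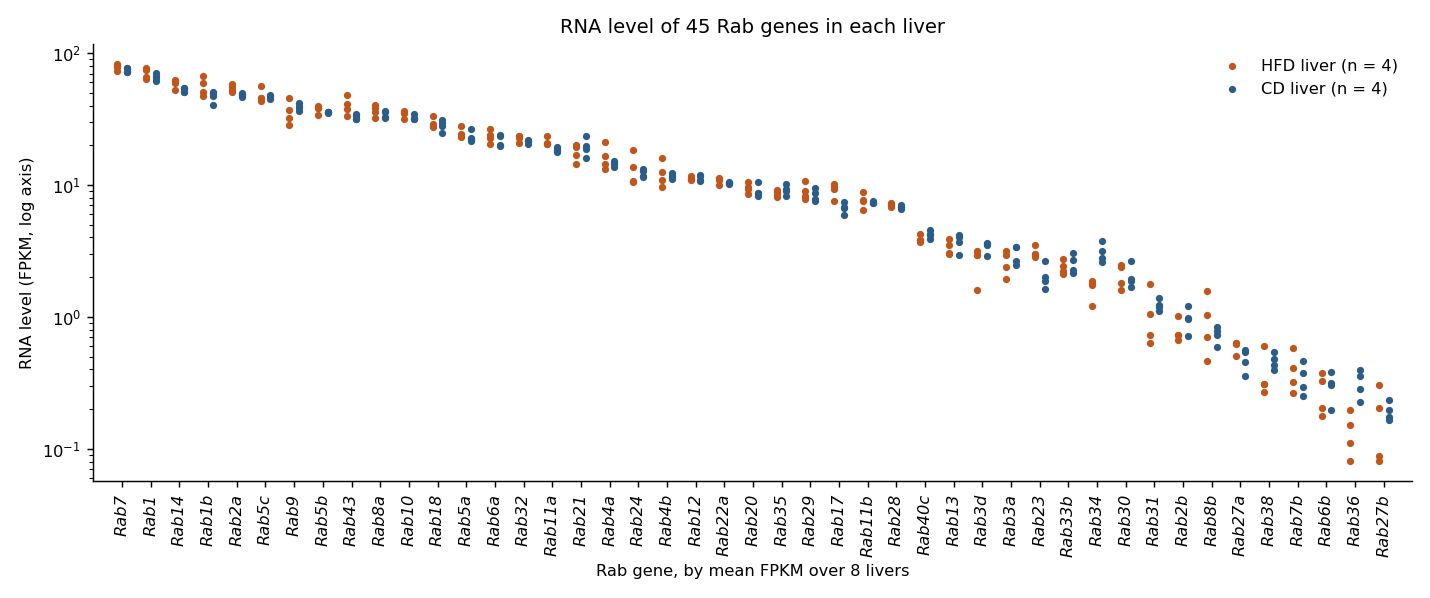
RNA level of each of the 45 Rab genes in every liver (FPKM, log axis), ordered by the mean over 8 livers; orange points are HFD livers and blue points CD livers (n = 4 each). Levels fall from 76.6 FPKM for Rab7 to 0.18 FPKM for Rab27b, and the diets lie apart for few genes.

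The 6 most abundant members held 43.5% of the summed Rab FPKM. Rab7, which drives late endosome and lysosome fusion, led with 79.0, 79.6, 82.8 and 73.7 FPKM in HFD livers A to D and 77.0, 77.7, 71.8 and 71.3 FPKM in CD livers A to D. Rab1, which RefSeq calls Rab1a and which carries vesicles from the endoplasmic reticulum (ER) to the Golgi, had 74.3, 66.0, 77.2 and 64.0 FPKM in HFD livers and 64.7, 66.7, 70.7 and 61.8 FPKM in CD livers. The diets overlapped for both genes.

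Rab14, of the route between Golgi and endosomes, had 52.6, 59.8, 62.1 and 61.2 FPKM in HFD livers and 51.1, 54.8, 54.1 and 50.6 FPKM in CD livers. Rab1b, a second ER-to-Golgi Rab, had 67.0, 59.1, 47.5 and 50.5 FPKM in HFD livers and 50.9, 40.6, 47.0 and 50.1 FPKM in CD livers. Within the top 6, the order Rab14 (55.8 FPKM), Rab1b (51.6 FPKM), Rab2a (51.1 FPKM) and Rab5c (46.9 FPKM) rests on steps between neighbours that are smaller than the spread between livers of 1 diet. Compared within each liver, however, Rab2a lay above Rab5c in all of them. Rab5c, which fuses early endosomes, had 55.8, 45.3, 43.1 and 45.5 FPKM in HFD livers and 47.8, 45.4, 44.8 and 47.1 FPKM in CD livers, with HFD A standing above the other HFD livers.

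At the low end, Rab27b, a Rab of regulated secretion, averaged 0.168 ± 0.106 FPKM in HFD and 0.192 ± 0.0312 FPKM in CD livers (SD, n = 4 each). Rab36 averaged 0.134 ± 0.0506 FPKM in HFD and 0.314 ± 0.0743 FPKM in CD livers. Rab6b, best known from neurons, averaged 0.27 ± 0.095 FPKM in HFD and 0.299 ± 0.077 FPKM in CD livers. Rab7b, known from monocyte lineages, averaged 0.393 ± 0.138 FPKM in HFD and 0.346 ± 0.0944 FPKM in CD livers. These 4 genes were the lowest of the family, and the diets overlapped for all of them except Rab36.

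Summed over the 45 genes, the Rab level was 877, 835, 817 and 794 FPKM in HFD livers A to D and 778, 784, 780 and 770 FPKM in CD livers A to D. Each HFD sum lay above each CD sum, and the means were 831 ± 35.3 FPKM under HFD and 778 ± 5.64 FPKM under CD (SD, n = 4 each). No test was run on this sum, which is a sum over chosen genes and is carried by the abundant members. On the log2 scale, deposited FPKM differed from counts scaled by transcript length and library total by -0.069 to 0.116 in library medians. The TMM factors, which rescale the library totals, were 0.926 for HFD A, 0.9596 for HFD B and 1.053 for CD B. With these factors taken out of the FPKM, the sum of CD B lies above those of HFD A and HFD B. The diets then overlap, so their separation in this sum depends on the scaling.

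Between the diets, RNA was tested with edgeR's quasi-likelihood test on the raw counts of all listed genes, and its p-values were given the Benjamini-Hochberg adjustment across that whole table. A gene counts as called where the adjusted p is under 0.05, and each log2 change (HFD over CD) carries its standard error (SE). The level of a gene in a library is its CPM, the count scaled to library size after TMM normalisation. By this test 3 of the 45 Rab genes passed (6.67%), against 7.27% of all genes. Of the Rabs, 1 rose, against 3.63% of all genes, and 2 fell, against 3.64%. The median log2 change of the Rabs was 0.07, against 0.01 over all genes, and the median size of the change was 0.12 against 0.16. In 40 of the 45 (88.9%) the 95% interval of the change lay within 2-fold in both directions, as it did in 85.8% of all genes. The exceptions were Rab34, Rab36, Rab8b, Rab38 and Rab27b.

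**Figure D2:**
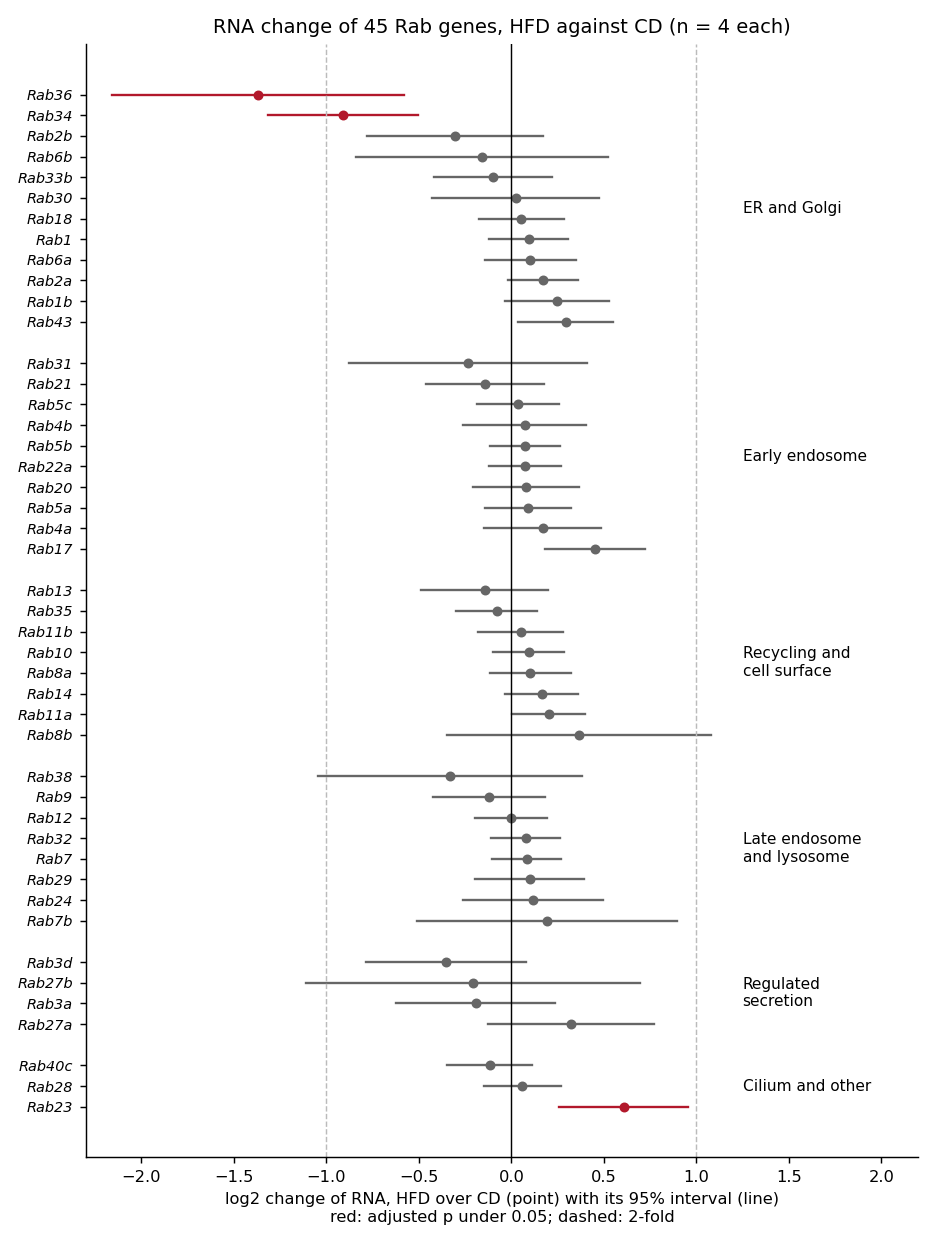
log2 change of RNA (HFD over CD) of the 45 Rab genes with its 95% interval, grouped by role and sorted within groups; n = 4 livers per diet. Red marks an adjusted p under 0.05 and dashed lines mark 2-fold. Rab36 (-1.37) and Rab34 (-0.91) lie to the left and Rab23 (0.61) to the right, while most other points lie near 0 with narrow intervals.

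Rab34 RNA, transcribed from chr11:78188427-78192193 on the plus strand, was 3.30, 3.16, 2.13 and 3.07 CPM in HFD livers A to D and 5.62, 6.69, 4.63 and 5.0 CPM in CD livers A to D. The diets did not overlap, and HFD C was the lowest liver of all. The mean was 2.92 ± 0.532 CPM in HFD and 5.49 ± 0.9 CPM in CD livers (SD, n = 4 each), and the gene fell by 0.91 on the log2 scale (SE 0.18, edgeR adjusted p = 0.0135). Rab34 passed the threshold under each setting in which it was tested, with edgeR or DESeq2 adjusted p between 0.000147 and 0.0477.

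Rab36 RNA, from chr10:75037089-75054100 on the plus strand, rested on few reads, 8, 5, 11 and 15 counts in HFD livers A to D and 28, 20, 23 and 32 counts in CD livers A to D. These came to 0.23, 0.151, 0.335 and 0.456 CPM in HFD livers and 0.869, 0.533, 0.682 and 0.971 CPM in CD livers. All HFD livers lay below all CD livers, with HFD D nearest to CD B. The gene fell by 1.37 on the log2 scale (SE 0.36, edgeR adjusted p = 0.0437). The call was lost in 7 of 8 fits that left out 1 library (edgeR adjusted p between 0.0528 and 0.115), and it held without HFD D.

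Rab23 RNA, from chr1:33719896-33742564 on the plus strand, was 15.8, 12.6, 13.5 and 13.5 CPM in HFD livers A to D and 8.91, 7.19, 8.31 and 11.9 CPM in CD livers A to D. HFD A was the highest liver, and CD D came close to the lowest HFD liver. The gene rose by log2 0.61 (SE 0.16, edgeR adjusted p = 0.0426), with means of 13.8 ± 1.35 CPM in HFD and 9.08 ± 2.02 CPM in CD livers (SD, n = 4 each). This call too was lost in 7 of 8 fits that left out 1 library (edgeR adjusted p between 0.0632 and 0.122), and it held without CD D.

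Another 3 Rabs had diets that did not overlap, all with HFD above CD, and missed the threshold. Together with the called genes these were 6 of 45 (13.3%), against 14.3% of all genes, 4 with HFD above (7.26% of all genes) and 2 with HFD below (7.01%). Rab17, an epithelial Rab of transcytosis, had 19.6, 18.1, 14.6 and 18.9 CPM in HFD livers and 12.9, 11.6, 13.1 and 14.4 CPM in CD livers, so that HFD C lay just above CD D. Its log2 change was 0.45 (SE 0.12, edgeR adjusted p = 0.0516). With DESeq2 it passed (adjusted p = 0.0115), without HFD C it passed with edgeR (adjusted p = 0.0208), and the authors' deposited table gives it a false discovery rate of 0.0218. The authors' rates were 0.000242 for Rab34, 0.00293 for Rab36 and 0.00835 for Rab23, each also below the edgeR adjusted p given here.

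Rab11a, the main Rab of recycling endosomes, had 54.9, 47.3, 48.2 and 47.8 CPM in HFD livers and 42.1, 43.8, 44.9 and 41.6 CPM in CD livers. Rab2a, which acts between the ER and the Golgi, had 119.6, 107.9, 114.1 and 104.0 CPM in HFD livers and 102.0, 94.8, 98.2 and 100.6 CPM in CD livers. In each the lowest HFD liver stood only slightly above the highest CD liver. The log2 changes were 0.20 for Rab11a (SE 0.09, edgeR adjusted p = 0.23) and 0.17 for Rab2a (SE 0.08, edgeR adjusted p = 0.293).

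**Figure D3:**
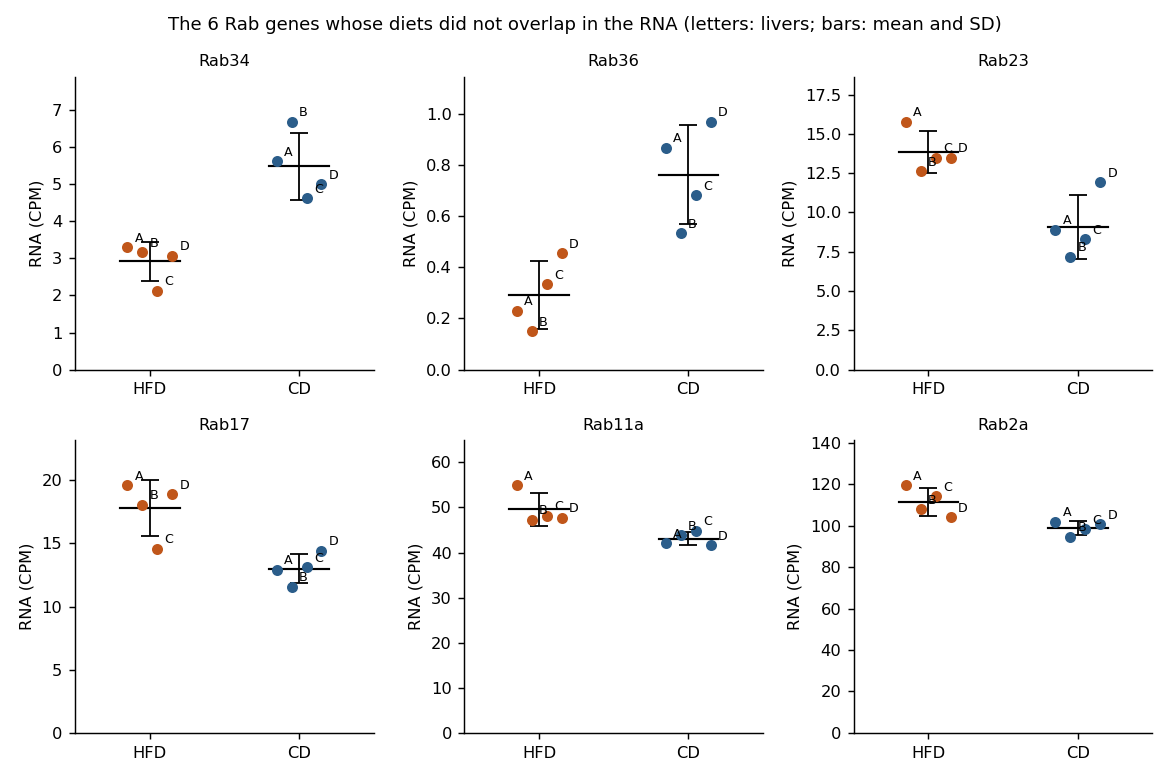
RNA level (CPM) in each liver for the 6 Rab genes whose diets did not overlap, HFD left and CD right; letters name the livers, the bar is the mean and the whiskers the SD (n = 4 each). Rab34 and Rab36 are lower in every HFD liver, and Rab23, Rab17, Rab11a and Rab2a higher, each of these by a narrow gap.

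The roles are a grouping of convenience, since many Rabs act at several membranes. Rab34 and Rab36, which sit at the Golgi and have further roles at cilia and lysosomes, were placed with the ER and Golgi, and the counts by role depend on such choices. Against 7.27% of all genes called, groups of 3 to 12 members are too small for a share to be read. In the group of 12 at the ER and Golgi, Rab34 and Rab36 passed, and the other members lay between log2 changes of -0.30 for Rab2b and 0.29 for Rab43. Rab43, a Golgi Rab, averaged 196 ± 30.4 CPM in HFD and 160 ± 7.33 CPM in CD livers (SD, n = 4 each) with edgeR adjusted p = 0.182. Rab18, a Rab of the ER and of lipid droplets, averaged 108 ± 10.3 CPM in HFD and 104 ± 9.52 CPM in CD livers. Its log2 change of 0.05 had a 95% interval of -0.18 to 0.28.

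None of the 10 early endosome Rabs passed with edgeR, and Rab17 lay nearest to the threshold. The 3 Rab5 genes changed by log2 0.09 (Rab5a), 0.07 (Rab5b) and 0.04 (Rab5c), with 95% intervals of -0.14 to 0.32, -0.12 to 0.26 and -0.19 to 0.26. Rab4a and Rab4b, which return receptors rapidly to the surface, had log2 changes of 0.17 and 0.07, with HFD A the highest of the 8 livers for both. Rab21, known for integrin traffic, had a log2 change of -0.14, and Rab31, of the route from the Golgi to endosomes, one of -0.23.

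None of the 8 Rabs of recycling and the cell surface passed with edgeR. Rab8a and Rab10, which carry vesicles to the plasma membrane, changed by log2 0.10 and 0.09, with 95% intervals of -0.11 to 0.32 and -0.10 to 0.28. Rab14 had a log2 change of 0.16 and Rab35, which acts on recycling from the surface, one of -0.08. Rab13, a Rab of tight junctions, had a log2 change of -0.14. The widest interval was that of Rab8b, a paralogue of Rab8a, with a log2 change of 0.36 and an interval of -0.35 to 1.08.

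None of the 8 Rabs of late endosomes, lysosomes and related organelles passed with edgeR. Rab7 had a log2 change of 0.08 (interval -0.11 to 0.27), Rab9, which returns receptors from late endosomes to the Golgi, -0.12 (interval -0.43 to 0.18), and Rab32, known from melanosomes and mitochondria, 0.08 (interval -0.11 to 0.26). Rab24, linked to autophagy, had 18.4, 13.6, 10.8 and 10.4 FPKM in HFD livers and 12.7, 11.8, 11.6 and 13.2 FPKM in CD livers. The HFD livers lay on both sides of the CD livers.

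The 4 Rabs of regulated secretion were all low, at 0.18 to 3.03 FPKM, and none of them passed with edgeR. Rab3d, known from secretory granules, had 2.95, 3.18, 1.60 and 2.93 FPKM in HFD livers and 2.90, 3.49, 3.58 and 3.64 FPKM in CD livers, with HFD C by itself at the low end. Its log2 change was -0.36 (SE 0.20, edgeR adjusted p = 0.355). Rab27a, which docks secretory vesicles, had a log2 change of 0.32 (SE 0.20, edgeR adjusted p = 0.434). Of the 3 remaining genes, Rab23 rose, and Rab28, a ciliary Rab, and Rab40c, a subunit of a ubiquitin ligase, had log2 changes of 0.06 and -0.12.

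Over the 45 genes, 6 had an unadjusted p under 0.05 (13.3%), against 20.4% of all genes. A positive log2 change was found in 29 and a negative one in 16, while 51.9% of all genes were positive. With library totals in place of TMM factors the split was 27 and 18, against 44.1% positive over all genes, and the median log2 change was 0.03 for the Rabs and -0.03 for all genes.

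The widest spread among HFD livers was found in Rab27b, Rab8b, Rab31, Rab36, Rab38 and Rab6b, all at low levels, though Rab27a, also low, had a log2 SD of 0.16. Relative to the CD mean, on the log2 scale, Rab27b stood at -1.25, -1.12, 0.09 and 0.67 in HFD livers A to D, Rab8b at -0.64, -0.06, 0.50 and 1.11, and Rab31 at -0.94, -0.75, -0.23 and 0.54. In these 3, livers A and B lay below livers C and D, as they did in Rab6b and in the called gene Rab36. Rab38, in contrast, was highest in HFD A (0.40, -0.77, -0.57 and -0.57). The SD of the log2 level was 0.93 under HFD and 0.23 under CD for Rab27b, 0.75 under HFD and 0.21 under CD for Rab8b, and 0.66 under HFD and 0.13 under CD for Rab31. The median over the Rabs was 0.18 under HFD and 0.13 under CD, and over all genes 0.24 under HFD and 0.17 under CD. Of the 45 Rabs, 12 had HFD C and D both above A and B, and 13 had them both below. The share over all genes was not taken, so these counts cannot be read as a trait of the Rabs.

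Markers of endothelium, macrophages and stellate cells were likewise lower in HFD livers A and B than in C and D. Those of hepatocytes were ordered the opposite way, and those of cholangiocytes in neither way. On the log2 scale relative to CD, 12 endothelial markers averaged -0.50, -0.25, 0.62 and 0.55 in HFD livers A to D, 14 macrophage markers -0.69, -0.05, 0.16 and 0.78, and 13 stellate cell markers -0.72, -0.55, 0.07 and 0.29. The 6 cholangiocyte markers averaged -0.97, -0.63, -0.95 and -0.48. The 12 hepatocyte markers averaged 0.32, 0.29, 0.1 and 0.11, and 4 lymphocyte markers -0.05, -0.04, 0.02 and 0.52. The summed levels of the endothelial, macrophage and stellate lists were 192 to 421 CPM under HFD and 238 to 341 CPM under CD for endothelium, 192 to 518 CPM under HFD and 252 to 366 CPM under CD for macrophages, and 333 to 580 CPM under HFD and 432 to 503 CPM under CD for stellate cells. No marker of these 3 lists passed with edgeR, nor did any of 4 lymphocyte markers, which summed to 9.25 to 19.4 CPM under HFD and 9.98 to 12.8 CPM under CD. The cholangiocyte markers summed to 57.4 to 83.7 CPM under HFD and 84.6 to 100 CPM under CD, and 1 of them, Sox9, fell (log2 change -1.45, edgeR adjusted p = 0.00987). The 12 hepatocyte markers summed to 120066 to 140929 CPM under HFD and 108446 to 122252 CPM under CD. Against 7.27% of all genes called, lists of 4 to 14 markers are too small for a share to be read. No marker of these lists was at 0 in all libraries, and their part in the results for Rab34, Rab36, Rab27b, Rab8b and Rab31 was not tested.

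The exons of 5 Rabs share bases with a gene on the opposite strand in the RNA table: Rab10 with Rab10os, Rab2b with Tox4, Rab6a with Mrpl48, Rab20 with E230013L22Rik and Rab3a with Mpv17l2. The use of strand in counting is not given in the sources used here, so the values of these Rabs are uncertain. None of these 5 passed the test with edgeR. Of the 45, 20 overlap another RefSeq gene over their gene bodies, the called gene Rab36 among them, with the long non-coding RNA Gm51773. Reads from such overlaps in Rab36, which had 5 to 32 counts per liver, could not be told apart here.

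The genes that load, switch and read Rabs were described from 4 lists. Of 117 measured genes 3 rose and 5 fell (6.84%), against 7.27% of all genes. None of the 8 genes of prenylation and GDP dissociation inhibition passed with edgeR, 2 had an unadjusted p under 0.05, and the median log2 change of the list was 0.07.

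The exchange factor list had 33 measured genes, and 2 of them fell (6.06% called, against 7.27% of all genes). St5 (Dennd2b), a DENN domain protein, had 26.7, 27.8, 29.9 and 37.6 CPM in HFD livers and 76.2, 58.2, 57.4 and 66.5 CPM in CD livers, so that each HFD liver was well below each CD liver (log2 change -1.08, SE 0.14, edgeR adjusted p = 0.00106).

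Of 38 GTPase-activating proteins of the TBC and related families 2 rose (5.26% called, against 7.27% of all genes). Tbc1d10a averaged 10.2 ± 1.54 CPM in HFD and 5.76 ± 0.752 CPM in CD livers (SD, n = 4 each, log2 change 0.83, edgeR adjusted p = 0.00717). Tbc1d16 averaged 39.0 ± 6.68 CPM in HFD and 24.5 ± 4.78 CPM in CD livers (log2 change 0.67, edgeR adjusted p = 0.0329). Every HFD liver lay above every CD liver for both, though for Tbc1d16 HFD A (30.9 CPM) was barely above CD C (30.5 CPM).

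Of 38 effectors 1 rose and 3 fell (10.5% called, against 7.27% of all genes). Rab11fip2 rose (log2 change 0.49, edgeR adjusted p = 0.0481) and Rab11fip3 fell (log2 change -0.37, edgeR adjusted p = 0.0425), both encoding proteins that bind Rab11. Ehbp1l1, a partner of Rab8 and Rab10, fell (log2 change -0.57, edgeR adjusted p = 0.0365). Sytl5, a synaptotagmin-like Rab27 effector, fell by 2.39 on the log2 scale (SE 0.56, edgeR adjusted p = 0.0283), with 0.144, 0.181, 0.427 and 0.70 CPM in HFD livers and 1.65, 3.54, 0.682 and 1.73 CPM in CD livers. HFD D and CD C met at nearly the same level.

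The second readout was H3K9ac, counted by the authors over 1 set of 57499 regions common to all livers and tested in the same way over all regions. The distance of a region is that of its middle from the nearest start site, as the authors' deposited table gives it. Of the 51 promoter regions of Rab genes 1 passed the test (1.96%), against 2.73% of all regions within 1000 bases of a start site, and this one fell, against 1.53% of them. No Rab promoter region rose by edgeR's test, against 1.2% of them. The median log2 change of the Rab promoter regions was -0.01 and the median size 0.08, against 0.01 and 0.09 for all such regions. The 95% interval lay within 2-fold in both directions in 50 of 51 (98.0%), against 92.9%, the exception being the 255-base region of Rab9b. The diets did not overlap in 3 (5.88%), against 14.8%, and 3 (5.88%) had an unadjusted p under 0.05, against 10.4%.

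The called region was that of Rab34, at chr11:78188204-78189924, 1721 bases long with its middle 317 bases beyond the start site and over the 5′ UTR and an intron. It held 53.2, 44.7 and 54.9 CPM in HFD livers A, B and D and 60.6, 66.1 and 78.5 CPM in CD livers A, C and D. All HFD livers lay below all CD livers, the nearest being HFD D and CD A. The log2 change was -0.43 (SE 0.09, edgeR adjusted p = 0.00313). The call was lost without HFD B (log2 change -0.33, edgeR adjusted p = 0.167) and without CD D (log2 change -0.31, edgeR adjusted p = 0.0935).

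The promoter region of Rab36, 760 bases long, was weak, with 4.68, 2.95 and 5.05 CPM in HFD livers and 4.02, 5.33 and 5.84 CPM in CD livers. The diets overlapped, and its log2 change of -0.27 (SE 0.22, edgeR adjusted p = 0.745) had a 95% interval of -0.71 to 0.18. A region in an intron of Rab36, at chr10:75045769-75047406, 9499 bases beyond the start site, held 4.51, 4.43 and 6.37 CPM in HFD livers and 12.7, 11.1 and 12.5 CPM in CD livers. Here the diets lay far apart, and the mark fell by 1.26 on the log2 scale (SE 0.18, edgeR adjusted p = 2.56e-06). It passed under each setting tried, with edgeR or DESeq2 adjusted p between 1.16e-07 and 0.00174.

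That region was 1 of 96 Rab regions beyond 1000 bases, which were taken up after their values had been seen. It was the only one of the 96 to pass with edgeR (1.04%, against 2.28% of all such regions, of which 1.56% were lower and 0.719% higher in HFD). An unadjusted p under 0.05 was found in 5, against 11.2% of all such regions, and 10 (10.4%) did not overlap, against 15.6%. Rab44, a large Rab known from immune cells, had 10 such regions, no promoter region and no RNA value.

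At Rab23 the promoter region chr1:33719673-33720752 held 32.4, 33.1 and 40.0 CPM in HFD livers and 26.4, 31.2 and 32.6 CPM in CD livers, with HFD A just under CD D. Its log2 change was 0.22 (SE 0.11, edgeR adjusted p = 0.457). An intronic region 14913 bases beyond the start site held 9.28, 7.12 and 6.81 CPM in HFD livers and 5.63, 5.0 and 4.95 CPM in CD livers. It did not overlap between the diets and missed the threshold (log2 change 0.58, SE 0.19, edgeR adjusted p = 0.113), and it passed without HFD D (adjusted p = 0.0442).

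Rab43 had the longest promoter region, 3604 bases, and the highest total signal, though per kilobase it held 51.7 CPM, against 106 CPM for Rab14. It had 197, 193 and 202 CPM in HFD livers and 170, 183 and 173 CPM in CD livers. The diets did not overlap, and the log2 change was 0.17 (SE 0.07, edgeR adjusted p = 0.277). Rab4b had the largest positive log2 change at a promoter, 0.33 (SE 0.12, edgeR adjusted p = 0.174), with 30.3, 24.6 and 28.2 CPM in HFD livers and 19.9, 24.7 and 21.3 CPM in CD livers. HFD B and CD C met there. At Rab17 the mark averaged 35.2 ± 1.86 CPM in HFD and 35.5 ± 0.721 CPM in CD livers (SD, n = 3 each), a log2 change of -0.01 with a 95% interval of -0.22 to 0.19.

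**Figure D4:**
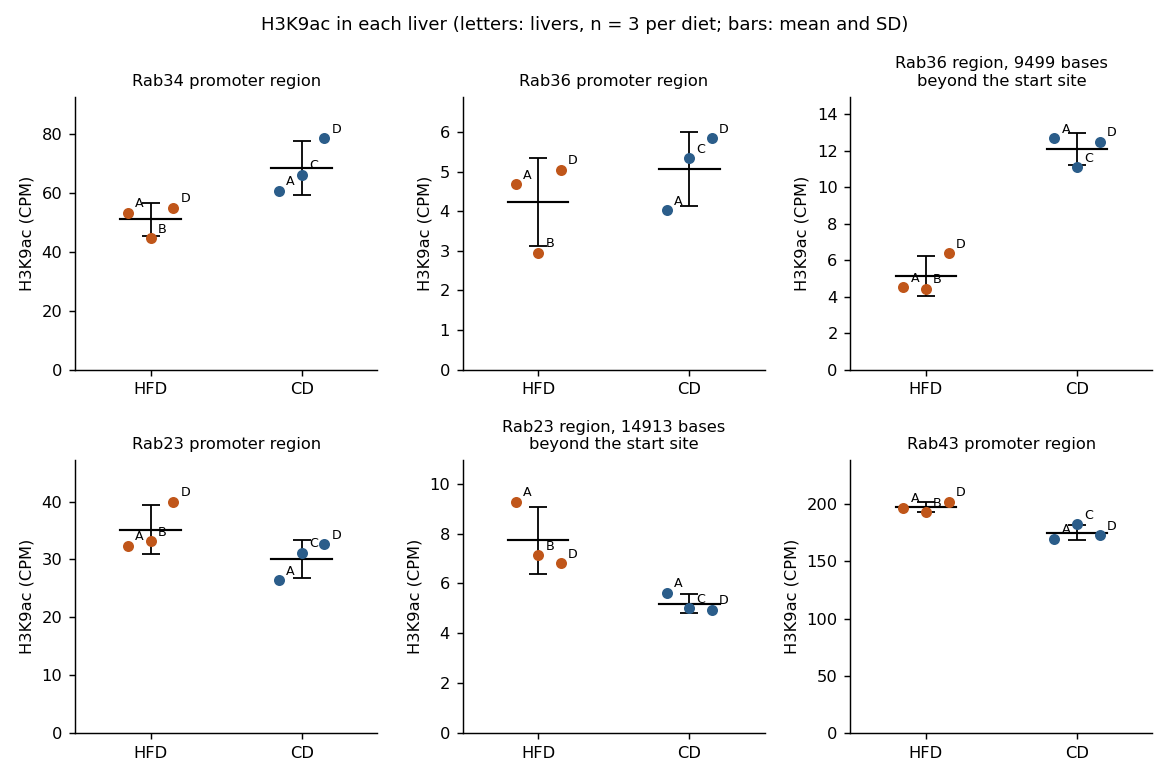
H3K9ac (CPM) in each liver for 6 regions of Rab genes, HFD left and CD right; letters name the livers, the bar is the mean and the whiskers the SD (n = 3 each). The Rab34 promoter region and the intronic Rab36 region are lower in every HFD liver, the Rab36 and Rab23 promoter regions overlap, and the intronic Rab23 region and the Rab43 promoter region are higher in every HFD liver without passing the test.

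The most abundant Rabs carried similar marks under both diets. At the Rab7 promoter H3K9ac was 124, 111 and 117 CPM in HFD livers and 113, 114 and 116 CPM in CD livers (log2 change 0.04, 95% interval -0.11 to 0.19). At the Rab14 promoter it was 160, 154 and 176 CPM in HFD livers and 168, 174 and 182 CPM in CD livers (log2 change -0.10, interval -0.25 to 0.05). At the Rab1 promoter it was 126, 118 and 120 CPM in HFD livers and 124, 126 and 113 CPM in CD livers. The diets overlapped at all 3, and the intervals lie within 2-fold in both directions.

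Per kilobase of region, mean promoter H3K9ac was 106 CPM for Rab14, 105 CPM for Rab2a, 104 CPM for Rab5b and 104 CPM for Rab7. Across the 41 Rabs with both readouts it ranked with the RNA level in FPKM at a Spearman correlation of 0.77, against 0.41 across the 10101 genes with both. The genes share the libraries and their depth, and region length ranked with FPKM at 0.21. Rab17, at 12.2 CPM per kb, and Rab9, at 24.8 CPM per kb, stood below several Rabs of lower RNA level. Rab33b, a Golgi and autophagy Rab, held 35.0 CPM per kb, Rab34 34.7 CPM per kb and Rab23 30.2 CPM per kb, at mean RNA levels of 2.45, 2.36 and 2.57 FPKM.

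The promoter regions of 9 Rabs not listed in the RNA table (Rab3b, Rab9b, Rab15, Rab19, Rab26, Rab37, Rab39, Rab40b and Rab42) held 4.27 to 23.9 CPM per kb with a median of 6.73, against 4.67 to 106 with a median of 36.9 in the 41 that were listed, each taken by its region with the highest signal. The other region of Rab5b, 370 bases long, held 4.17 CPM per kb. Rab40b had the highest of the 9. No gene in the RNA table had a mean count under 13.9, and the RNA of these 9 could not be tested. None of their promoter regions passed the test with edgeR. Conversely, Rab3a, Rab6a, Rab20 and Rab30 had RNA values and no region within 1000 bases by this distance. Rab6a and Rab20 had no region under their names at any distance. Regions named for other genes were not counted for them, so a lack of the mark at their promoters is not shown. A Rab3a region of 4014 bases, with its middle 1739 bases beyond the start site, nevertheless covers that site.

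Set side by side across the 41 genes, the 2 changes had the same sign in 24 (58.5%), against 61.0% of the 10101 genes. The Spearman correlation of the changes was 0.32, against 0.34 over all genes. Their Pearson correlation was 0.60, in which outlying points such as Rab34 and Rab36 weigh more, and it has no all-gene value beside it. Rab34 was the only one of the 41 to pass with edgeR in both assays at the promoter, lower in HFD in each. Rab36 lay in the same lower quadrant without passing at its promoter, and Rab17 paired a log2 RNA change of 0.45 with one of -0.01 in the mark.

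**Figure D5:**
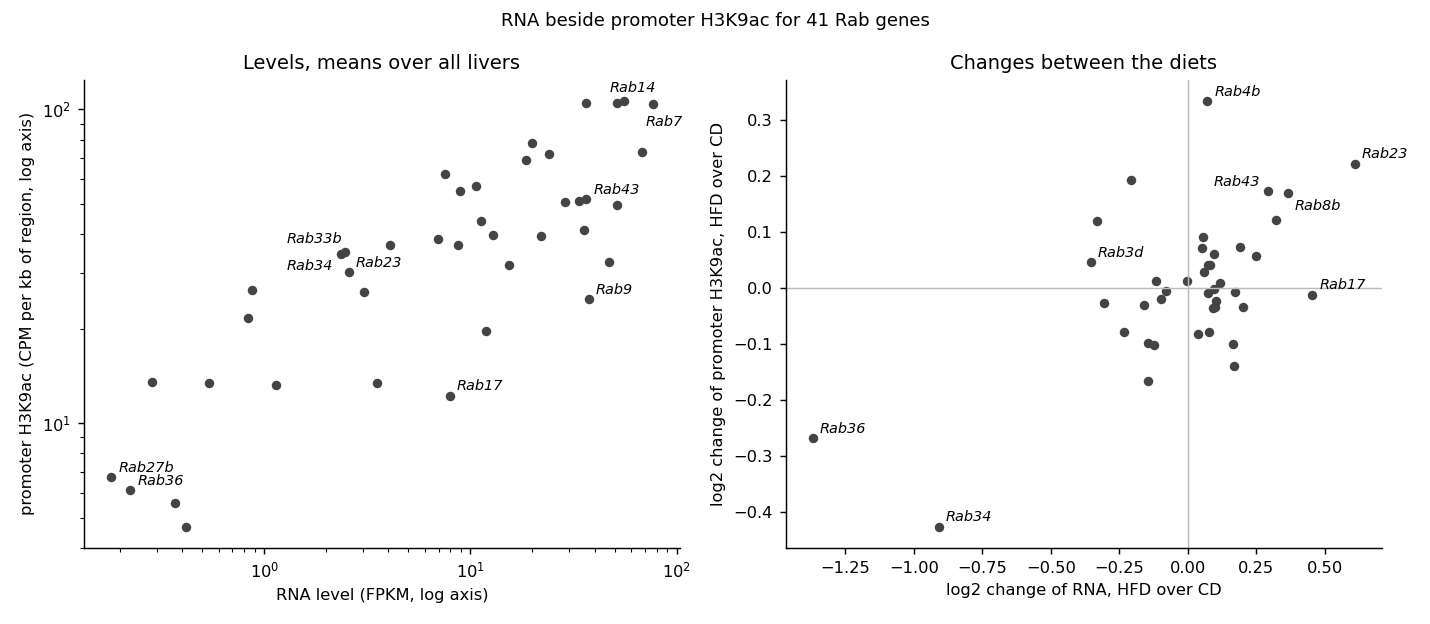
RNA beside promoter H3K9ac for the 41 Rab genes with both. Left, mean RNA level (FPKM) against mean mark (CPM per kb of region) over all livers, both log axes. Right, log2 change of RNA against log2 change of the mark, HFD over CD. Levels rank together (Spearman 0.77), and in the right panel Rab34 (-0.91 and -0.43) and Rab36 (-1.37 and -0.27) stand apart at the lower left.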

How the data were processed

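Each assay had a table deposited by the authors. Read counts and log2 FPKM stood beside every gene in the RNA table, with log2 fold changes, p-values and false discovery rates between the diets, per the file headers. Regions of the H3K9ac table had read counts, log2 CPM and like statistics, per the file headers. Coordinates are mm10, the build in the submitters' processing notes. How reads were aligned and counted, how peaks were called and which test the authors used is not given in the sources used here. Totals were 31802893 to 37596560 counts per RNA library and 9255635 to 12149497 per H3K9ac library, and a floor of 3 counts was 0.0799 to 0.0931 CPM and 0.25 to 0.329 CPM. The RNA column headings held running numbers that cannot be told apart from diet. An input and 2 ATAC libraries were not analysed here.

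Blank lines (4999) and repeats of 71 regions were dropped, and all 14 libraries had a matched column. Counts were tested with edgeR 4.0.16 (TMM, filterByExpr, which removed nothing, glmQLFit and glmQLFTest, two-sided, diet as the only term) in R 4.3.3, tested on simulated data, and alternatively with DESeq2 1.42.0. FPKM are 2 to the power of the deposited log2 FPKM. The design text gives 4 mice per diet without tying them to libraries, so p-values measure the spread between libraries. Equal letters are not stated to pair animals across the diets, so no pairing was used. Deviations of equal letters correlated at -0.22 to 0.29 in the RNA, against -0.41 to 0.37 for unlike letters. In the H3K9ac they correlated at 0.08 to 0.09, against -0.12 to 0.05, and so few pairs cannot decide whether letters pair.

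Members, gene lists and tests were chosen with earlier results of these data known. Values per liver are given for called members, the 6 highest and 4 lowest by FPKM, and members whose diets did not overlap; of the regulator and effector lists, called genes are named, except that 1 gene there and 1 marker gene are not reported here. Genes named beyond this rule, including Rab24, Rab3d, Rab8b and Rab31, were chosen after their values were seen. Sequences, gene positions and overlaps are from RefSeq (GRCm38.p6), whose promoter table held 44 members.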

Additional observations from a re-analysis of the deposited data

Results flagged for a closer look

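In 5 of 90 groups of 4 libraries (45 Rabs in each diet), 1 liver stood far from the other 3 by Dixon's test, which chance alone does in about 1 of 20 groups. All 5 were HFD livers. HFD A had 54.9 CPM of Rab11a, where the other HFD livers had 47.3 to 48.2 CPM. It had 0.89 CPM of Rab38, where the others had 0.362 to 0.427 CPM, and 1.67 CPM of Rab27a, where the others had 2.07 to 2.11 CPM. HFD C had 6.12 CPM of Rab3d, where the others had 11.3 to 12.2 CPM. HFD D had 23.6 CPM of Rab12, where the others had 22 to 22.2 CPM.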

How the results depend on the processing

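The count of 3 Rab genes called in the RNA was 4 with DESeq2, 3 with library totals and without a filter, 0 of 23 Rabs with only genes at or above the median level, which drops all 3, and 1 to 2 when 1 library was left out. Over all genes the count of 897 was 1405 with DESeq2, 545 with the median filter, which tested fewer genes, and 478 to 1107 with 1 library left out. The count of 1 Rab promoter region was 1 with windows of 500 or 2500 bases and with 1 region per gene, and 0 to 1 with 1 library left out. Over all regions the count of 1372 was 813 with DESeq2, 885 with the median filter and 563 to 1862 with 1 library left out. The letters are not stated to pair the samples, and only A and D occur in both diets for H3K9ac. A replicate block on them gave 3 Rab genes, 826 genes, 3 Rab promoter regions and 1277 regions. It added the promoters of Rab4b (log2 change 0.51, adjusted p = 0.0129) and Rab43 (0.22, adjusted p = 0.0295) and put that of Rab36 at 0.0028. Alternatives were run for 14 Rab genes in the RNA and 8 Rab regions, not for the others. Among these the signs that turned were of uncalled values: the RNA of Rab7b without HFD D (-0.07, with a range of -0.07 to 0.38 over the fits without 1 library), of Rab27b without HFD A (0.02, range -0.68 to 0.02), and of Rab5c with library totals (-0.01) and without HFD A (-0.07, range -0.07 to 0.08), and the Rab17 promoter without HFD A (0.009), HFD D (0.02) and CD A (0.0049), with a range of -0.05 to 0.02. The cause was not tested. Genes with few reads were not listed and could not be tested.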
